A study of Oryctolagus cuniculus with 4 samples.

Results

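KDR, SOX17 and VCAM1 were the 3 genes described here, of 1489 genes that could be named on a rabbit expression array. They were chosen by name, with earlier results of these data known, and every probe assigned to their RefSeq transcripts was taken. This gave 12 of 43603 probes, with 6 for KDR (transcript NM_001195670), 1 for SOX17 (XM_008255533) and 5 for VCAM1 (NM_001082152). The tissue was the ligamentum flavum, the elastic ligament between neighbouring vertebral arches, taken from male rabbits at 34 weeks of age, 16 weeks after surgery per the labels. The rabbits, aged 18 weeks at surgery, had the muscle over L3/4 resected and the adjoining segments L2/3 and L4/5 fused posterolaterally with instrumentation. The 4 groups were L3/4 between the fusions, labelled the ISC level and stress-induced, the fused segments L2/3 and L4/5, and a control for each site. The controls are called the L3/4 control and the L2/3-L4/5 control. The labels attach the same surgery text to all 4 samples, so whether the control rabbits were operated on is not settled, and strain and pooling of animals or segments are not stated in the labels used here. Each group was measured on 1 array, so no value has a replicate error or a p-value, and the differences below hold for these arrays and not for the conditions.

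Endothelial cells line blood vessels. KDR is their main signalling receptor for vascular endothelial growth factor and carries its signals for growth, survival and permeability. SOX17 is a transcription factor of endothelial cells, best known from arteries, where it acts with the Notch pathway. VCAM1 is an adhesion molecule that activated endothelium displays after exposure to cytokines, and integrins of leukocytes bind it during their exit from the blood. VCAM1 is also made by other stromal and haematopoietic cells, so it is not a marker of endothelium alone.

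SOX17 was lowest at the ISC level and highest in the L3/4 control, VCAM1 was highest at the fused levels on its brightest probe, and KDR was near background on all 4 arrays. Values are given as the array's processed signal with the scanner software's own error of that signal, which is a technical error of 1 spot. A level is log2 of the signal minus the array's 75th percentile, a signal between 53.4 (L3/4 control) and 93.7 (ISC level). A ratio is a difference of 2 levels on the log2 scale, and its error combines those of both spots. A gene is represented by its probe with the highest mean level, and a size of 2-fold is used as a fixed mark, not as a test. Differences beyond 2 combined errors were common among all features (genes or unnamed transcripts). They made up 54.8% between the ISC level and its control, 47.7% between the fused levels and theirs, 48.9% between the controls, 34.9% for the ISC level and 57.1% for the fused levels against the other site's control, and 43.2% between ISC and fused levels. That mark therefore speaks only of spot noise.

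**Figure D1:**
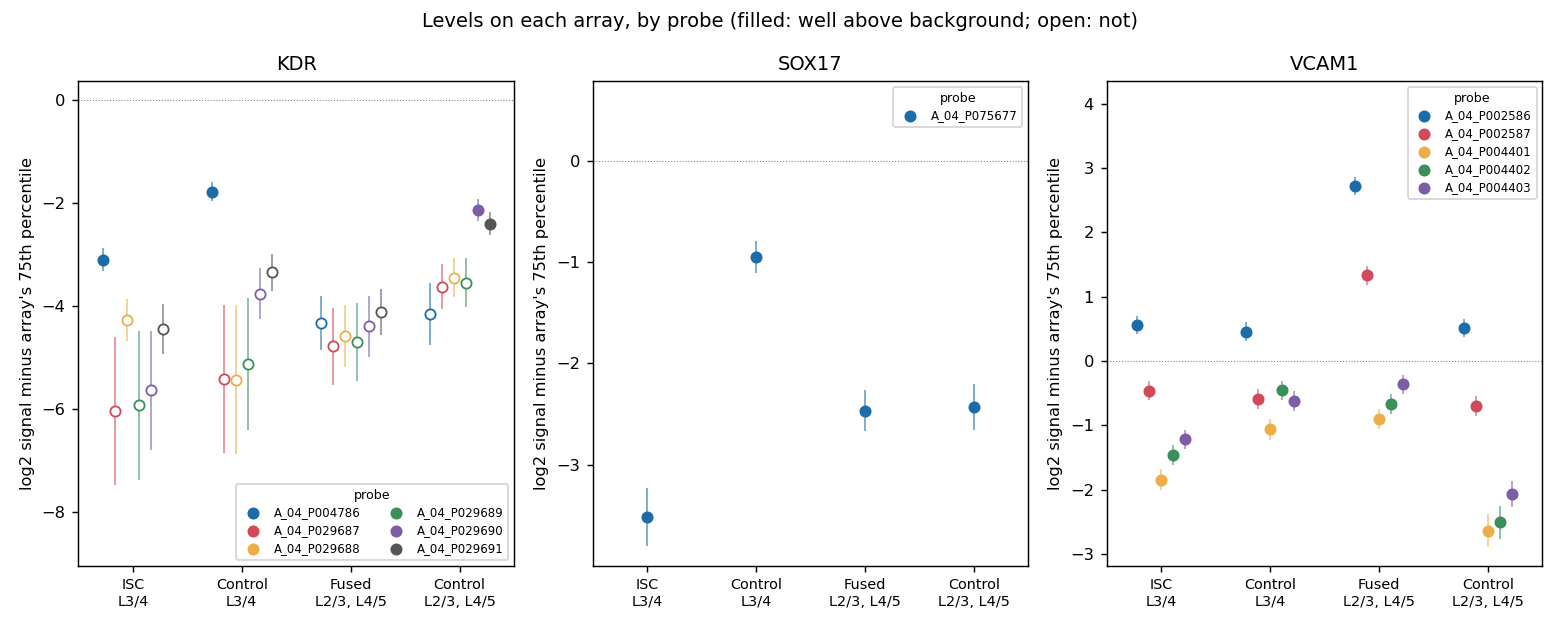
Level of each probe of KDR, SOX17 and VCAM1 on the 4 arrays (log2 signal minus the array's 75th percentile, vertical axis), with bars for the software's error of 1 spot; filled points are well above background and open points are not. All but 4 of the 24 KDR points are open, the SOX17 point is lowest at the ISC level, and the 5 VCAM1 probes fall into different patterns.

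KDR was detected on few of its probes. Of the 6 probes, the software marked as well above background 2 in the L2/3-L4/5 control, 1 in the L3/4 control, 1 at the ISC level and 0 at the fused levels. The brightest probe, A_04_P004786, had a signal of 11.0 ± 1.73 at the ISC level and 15.6 ± 2.01 in the L3/4 control. On the fused levels it had 4.24 ± 1.55 and in the L2/3-L4/5 control 4.07 ± 1.70, neither well above background. The 2 arrays of L3/4 were thus the ones well above background on this probe. The ISC level was below its control by a log2 ratio of -1.32 ± 0.29. Part of that ratio comes from the scaling, since the 75th percentile was 93.7 at the ISC level and 53.4 in the L3/4 control.

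Another pair of KDR probes gave a different order. Probe A_04_P029690 had a signal of 16.7 ± 2.51 in the L2/3-L4/5 control, against 1.89 ± 1.51 at the ISC level, 3.96 ± 1.37 in the L3/4 control and 4.07 ± 1.67 at the fused levels. Probe A_04_P029691 had 13.8 ± 2.12 in the L2/3-L4/5 control, against 4.33 ± 1.45, 5.28 ± 1.33 and 4.93 ± 1.53 on the other arrays in the same order. Both probes passed the background mark in the L2/3-L4/5 control alone, where A_04_P004786 did not pass it. The remaining probes, A_04_P029687, A_04_P029688 and A_04_P029689, were not well above background on any array, with signals from 1.24 to 6.69. Each of the 6 probes carries the same transcript identifier, and why they differ was not tested.

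Where a probe was well above background on 1 array of a pair, a lower bound on the fold was taken. The dim side was put at its measured level or at the array's lowest detected level, whichever was larger. Spot errors did not enter the bound. The fused levels were at least 2.81-fold lower than the L2/3-L4/5 control on A_04_P029690 and at least 2.33-fold lower on A_04_P029691. Relative to the L3/4 control they were at least 3.59-fold lower on A_04_P004786. Bounds of at least 2-fold in this direction were found for 3.25% of probes well above background in the L2/3-L4/5 control, and for 4.14% of those in the L3/4 control. The direction of each bound follows from which array passed the background mark, so it is not a separate result. The bounds against each control came from a different KDR probe or pair of probes, and no KDR probe was detected in both controls. For the ISC level against the L2/3-L4/5 control the bounds were at least 3.29-fold lower on A_04_P029690 and at least 2.72-fold lower on A_04_P029691. The share of probes with a 2-fold bound downwards was 2.2% there. On A_04_P004786 the bound was 1.09-fold higher, and the ratio of 1.06 ± 0.64 was not beyond 2 combined errors. Between the controls the probes disagreed in direction. There L3/4 was at least 2.71-fold higher on A_04_P004786 and at least 2.04-fold lower on A_04_P029690. Over all probes 3.31% had a 2-fold bound upwards and 4.43% downwards, of those well above background on the higher array.

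SOX17 had a dim signal that was well above background on every array. It was 8.17 ± 1.63 at the ISC level, 27.7 ± 3.03 in the L3/4 control, 15.4 ± 2.14 at the fused levels and 13.5 ± 2.14 in the L2/3-L4/5 control. As levels these were -3.52, -0.95, -2.47 and -2.43. The ISC level had the lowest value and the L3/4 control the highest. The fused levels and the L2/3-L4/5 control differed by 0.04 with a combined error of 0.30, so these neighbours in the order were not apart beyond spot noise, while the other neighbouring steps of 1.05 ± 0.35 and 1.48 ± 0.28 were.

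The SOX17 ratio of the ISC level was -2.57 ± 0.33 to its own control and -1.09 ± 0.37 to the L2/3-L4/5 control. At the fused levels it was -0.04 ± 0.30 to their own control and -1.52 ± 0.25 to the L3/4 control. Between the controls, L3/4 was higher by 1.48 ± 0.28. Of 13729 features, 59 had a lower ratio than SOX17 at the ISC level against its own control, and of 13137 features, 406 had a higher one between the controls. SOX17 has 1 probe on the array, so no second probe could be set beside it. With normexp background correction and an offset of 50 added to every signal, the ISC ratios to the own control were under 2-fold. They were -0.62 for SOX17 and -0.35 for KDR, and such an offset makes the ratios of dim signals smaller.

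**Figure D2:**
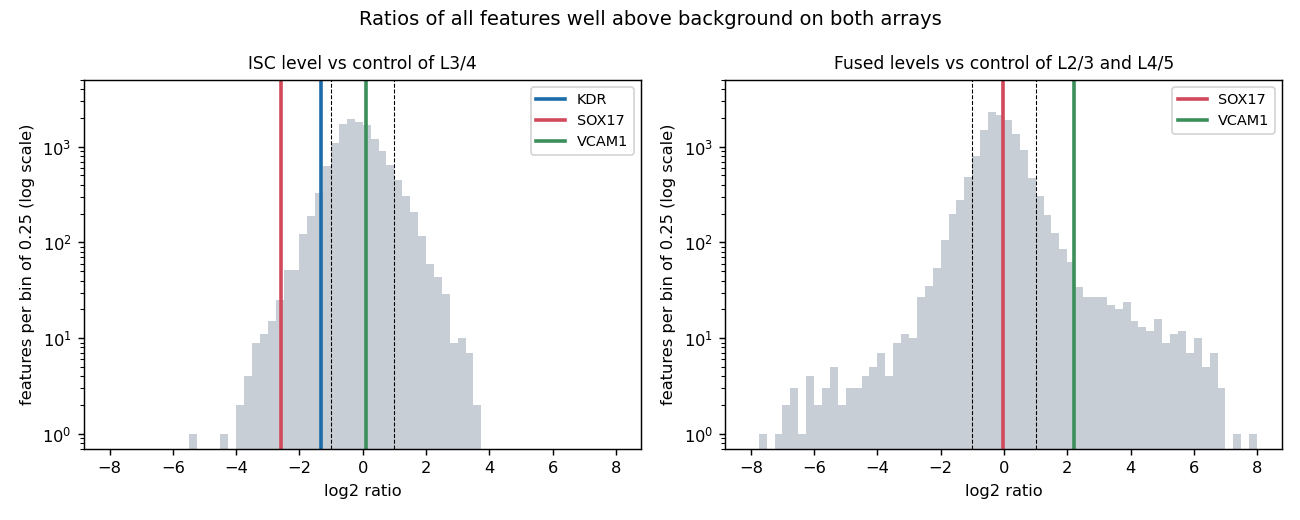
Number of features (vertical axis, log scale) by log2 ratio (horizontal axis, bins of 0.25) for the ISC level against the L3/4 control and the fused levels against the L2/3-L4/5 control, with the representative probes of KDR, SOX17 and VCAM1 as lines and 2-fold dashed. SOX17 at -2.57 and KDR at -1.32 lie in the lower tail at the ISC level, VCAM1 at 2.21 lies in the upper tail at the fused levels, and KDR has no line there since it was not well above background.

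VCAM1 was well above background on all 5 probes and all 4 arrays. On its brightest probe, A_04_P002586, the signal was 138 ± 13.9 at the ISC level, 73.1 ± 7.41 in the L3/4 control, 564 ± 56.4 at the fused levels and 104 ± 10.5 in the L2/3-L4/5 control. The corresponding levels were 0.56, 0.45, 2.72 and 0.51, so the fused array stood above 3 arrays that were alike within their spot errors. Probe A_04_P002587 gave the same picture, with levels of -0.46, -0.59, 1.33 and -0.70.

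The other VCAM1 probes placed the arrays differently. On A_04_P004401 the levels were -1.85 at the ISC level, -1.06 in the L3/4 control, -0.90 at the fused levels and -2.64 in the L2/3-L4/5 control. On A_04_P004402 they were -1.46, -0.46, -0.67 and -2.51, and on A_04_P004403 -1.22, -0.63, -0.36 and -2.07. On these 3 probes the L2/3-L4/5 control was lowest and the ISC level next, and the fused levels and the L3/4 control shared the top with fused-to-control differences of 0.16 ± 0.22, -0.21 ± 0.21 and 0.26 ± 0.21. The division of the probes into these sets was made after their values were seen.

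At the fused levels against their own control all 5 VCAM1 probes were at least 2-fold higher, with log2 ratios of 2.21 ± 0.21 on A_04_P002586, 2.03 ± 0.21 on A_04_P002587, 1.74 ± 0.30 on A_04_P004401, 1.84 ± 0.29 on A_04_P004402 and 1.71 ± 0.25 on A_04_P004403. Their mean was 1.91 with an SD of 0.21 over the 5 probes, which share 1 RNA sample. Of 13717 features, 308 had a higher ratio than the brightest probe. Relative to the L3/4 control VCAM1 at the fused levels was higher by 2.27 ± 0.21 and 1.92 ± 0.21 on the first pair and lay at 0.16, -0.21 and 0.26 on the other probes. The higher VCAM1 signal of the fused levels was thus at least 2-fold to both controls on 2 of 5 probes.

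At the ISC level VCAM1 was 0.11 ± 0.21 and 0.13 ± 0.21 to its own control on A_04_P002586 and A_04_P002587. It was -0.79 ± 0.23 on A_04_P004401, -1.01 ± 0.22 on A_04_P004402 and -0.59 ± 0.22 on A_04_P004403, so 1 of 5 probes was at least 2-fold lower. To the L2/3-L4/5 control the 5 ratios ran from 0.05 to 1.05, all above 0, with 1 of 5 at 2-fold. Between the ISC and fused levels they ran from -2.16 to -0.79, all below 0, and the ISC level was lower by 2-fold or more on 2 of 5. The control of L3/4 was within 0.11 of the other control on the first pair of probes and above it by 1.58, 2.05 and 1.44 on the rest.

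**Figure D3:**
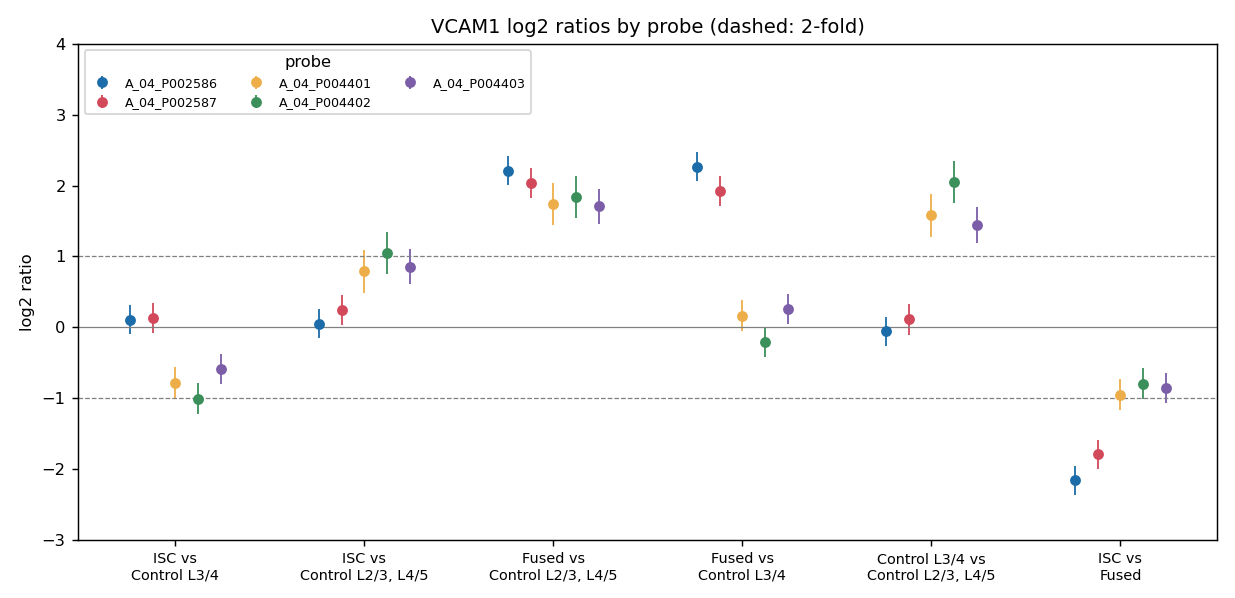
VCAM1 log2 ratio (vertical axis) of each of the 5 probes in 6 comparisons of arrays, with bars for the combined error of both spots and dashed lines at 2-fold. All 5 probes lie above 2-fold for the fused levels against their own control, from 1.71 to 2.21, while against the L3/4 control they run from -0.21 to 2.27.

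Such spread over the probes of 1 gene was uncommon on these arrays. For the fused levels against the L3/4 control, the VCAM1 probes spanned 2.48 on the log2 scale, and 9 of the 1178 features with 5 measured probes, VCAM1 among them, spanned as much, with a median span of 0.31. Between the controls VCAM1 spanned 2.11, as did 11 of 1129 features or more, VCAM1 included. For the fused levels against their own control the span was 0.50, reached by 276 of 1223 features with a median of 0.29. The array files used here hold no probe sequences, and where in the transcript each probe lies was not analysed here.

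**Figure D4:**
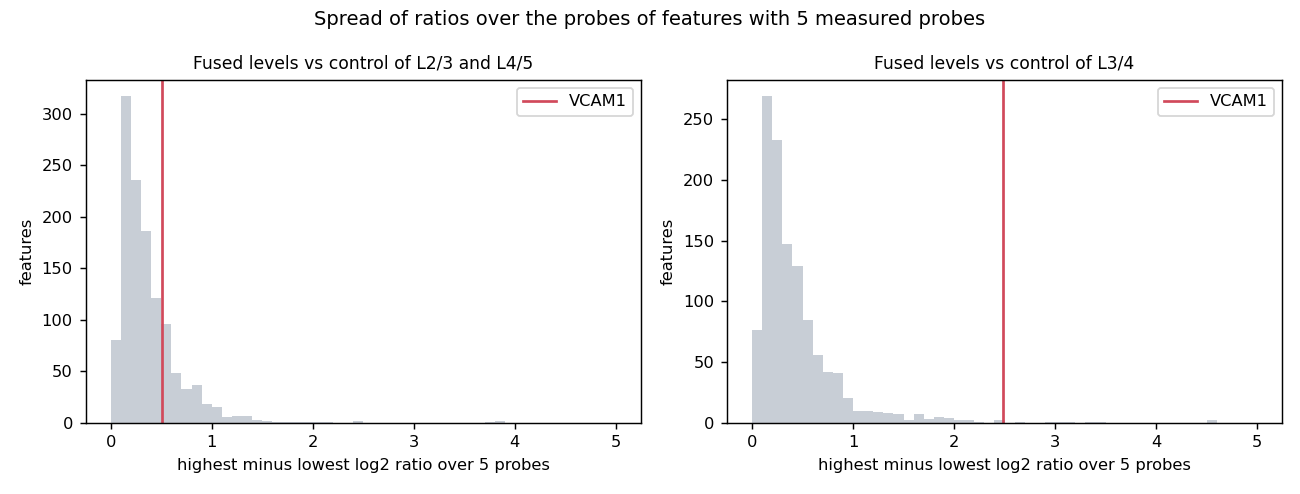
Number of features with 5 measured probes (vertical axis) by the span between the highest and lowest log2 ratio of those probes (horizontal axis), for the fused levels against each control, with VCAM1 as a line. VCAM1 at 0.50 lies in the body of the distribution against the L2/3-L4/5 control, and at 2.48 far in its tail against the L3/4 control.

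Counted on representative probes, KDR and SOX17 of the 3 genes were lower by 2-fold or more at the ISC level than in its control, where 10.5% of 13729 features were lower and 9.08% higher at that size. KDR was measured there on 1 of its 6 probes. At the fused levels 1 of the 2 measured genes was at least 2-fold higher than in their control (VCAM1), beside 7.84% of 13717 features higher and 9.15% lower. Since the genes were chosen with these contrasts known, nothing is read from those counts. To the L2/3-L4/5 control the ISC level had SOX17 at least 2-fold lower and VCAM1 under 2-fold, with 5.03% of features lower and 3.54% higher. To the L3/4 control the fused levels had SOX17 lower and VCAM1 higher at that size, with 13% of features lower and 11.2% higher. These comparisons share control arrays with the first ones. At the ISC level against the fused levels, SOX17 and VCAM1 were both lower by 2-fold or more, with 7.76% of features lower and 6.99% higher. Between the controls SOX17 was higher at L3/4, with 8.39% of features higher and 9.19% lower.

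Of 44 further endothelial markers, 8 could be named on the array, and PECAM1, CDH5, VWF, TEK and FLT1 were not analysed here. Of the 6 measured on both arrays, 2 were higher by 2-fold or more at the ISC level than in its control and 0 were lower by that size. Of all features, 9.08% were higher and 10.5% lower at that size. The median ratio of the markers was -0.14 beside -0.17 over all features. S1PR1, a receptor for sphingosine-1-phosphate that stabilises vessels, was higher by 1.45, and THBD, the anticoagulant thrombomodulin, by 1.24. NOS3, the endothelial nitric oxide synthase, was at -0.08, EDN1, the vasoconstrictor endothelin, at -0.21, CAV1, the coat protein of caveolae, at -0.29, with 7 probes from -0.71 to 0.59 that differ in sign, and SELE, the adhesion molecule E-selectin, at -0.72 on 1 of its 5 probes. S1PR1 and THBD were higher than in the L3/4 control on the fused array as well, by 1.79 and 2.03. Relative to the L2/3-L4/5 control the ISC level was at -0.09 for S1PR1 and 0.24 for THBD.

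At the fused levels against their own control, 1 of the 6 markers was higher by 2-fold or more and 0 were lower by that size. Of all features, 7.84% were higher and 9.15% lower at that size. The median of the markers was 0.26 beside -0.14 over all features. THBD was higher by 1.03, SELE was at 0.54 on 1 of its 5 probes, NOS3 at 0.27, S1PR1 at 0.26, EDN1 at 0.10 and CAV1 at -0.34. ACE, the angiotensin-converting enzyme, was well above background on 1 of 6 probes at the ISC and fused levels and on none in the controls, which put the fused levels at least 1.02-fold and the ISC level at least 3.24-fold above the L2/3-L4/5 control. PROX1, a regulator of lymphatic endothelium, was not well above background on any array. In bulk tissue, a difference in the share of endothelial cells and a difference in RNA per cell cannot be told apart.

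Of the genes that act around KDR in growth factor signalling, 6 of 32 on the list could be named, among them NOS3 and CAV1, given above, but none of the ligands or other receptors. In the ISC comparison with its control 1 of 6 passed 2-fold upwards and 1 downwards, beside 9.08% and 10.5% of all features. PTGS2, cyclooxygenase-2, was higher by 1.31, with a second probe at -0.38, and PRKCB, a protein kinase C isoform, was lower at -2.58 on 1 of its 6 probes. HIF1A, the oxygen-regulated factor that drives vascular growth factor expression, was at 0.93 with 3 probes from 0.93 to 1.08. PRKCA, another isoform, was at -0.36 on 1 of its 2 probes. At the fused levels 2 of 5 measured genes passed 2-fold upwards, beside 7.84% of all features. They were PRKCB at 3.52 on 1 of its 6 probes and PTGS2 at 2.44, with its second probe at 0.14. PRKCB was higher by 3.07 in the L3/4 control than in the other control on its representative probe. Against the other site's control it was at 0.49 at the ISC level and 0.45 at the fused levels. HIF1A was at -0.85 at the fused levels, with probes from -1.19 to -0.85. HIF1A thus lay above its control at the ISC level and below it at the fused levels on all 3 probes. Of 30 SOX and Notch genes listed as partners of SOX17, WNT5A and DKK1, a ligand and an inhibitor of Wnt signalling, could be named, and neither was well above background on any array.

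Genes that work with VCAM1 in leukocyte adhesion were named for 4 of 22 symbols. ITGB1, the beta chain of an integrin that binds VCAM1, had high signal on every array and ratios of 0.28 at the ISC level and -0.18 at the fused levels to the own control. EZR, a linker of membrane proteins to actin, had no probe well above background on any array.

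Of 26 listed inducers of VCAM1 and genes induced with it, 14 could be named. In the fused levels against their control 2 of 6 measured passed 2-fold upwards and 0 downwards, beside 7.84% and 9.15% of all features. Their median was 0.73 beside -0.14 over all features. IFNG, interferon gamma, was higher by 2.42 on 1 of its 2 probes and CXCL8, a neutrophil chemoattractant, by 1.05, with CXCL8 probes from 0.79 to 1.79. IL1B, an inducer of VCAM1, was at least 21.8-fold higher at the fused levels than in their control and higher by 3.75 than in the L3/4 control on the 1 of its 3 probes measured in both. CCL2, a monocyte chemoattractant, lay just under 2-fold lower on its representative probe and at -1.59 on the lowest of its 4 probes, and LTA, lymphotoxin alpha, was at -0.35. TNF, another inducer, had no probe well above background on any array, nor had IL4, IL6 or IRF1. At the ISC level against its control 2 of 8 measured genes passed 2-fold upwards, beside 9.08% of all features. They were CCL2 at 1.54 and TLR2, a receptor for bacterial lipoproteins, on 1 of its 3 probes. Downwards 1 passed it, IL1A at -1.49 on 1 of its 4 probes, beside 10.5% of all features. Against the other site's control the ISC level was at 0.37 for CCL2 and 0.36 for TLR2. There 0 of 6 measured genes passed 2-fold in either direction, beside 3.54% of all features upwards and 5.03% downwards. Between the controls, L3/4 was at -1.16 for CCL2 and -1.24 for TLR2.

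Leukocyte and marrow genes were high on the same array as VCAM1. Of the 8 named markers, 7 were measured at the fused levels and in their control. Of these, 6 passed 2-fold upwards and 0 downwards, beside 7.84% and 9.15% of all features. The median of the markers was 4.12 beside -0.14 over all features, and their ratios ran from -0.08 for CD4 to 6.14 for CAMP and MCP2. Their summed level, in units of each array's 75th percentile, was 285 at the fused levels, 7.95 at the ISC level, 12.6 in the L3/4 control and 6.56 in the L2/3-L4/5 control. The 2 haemoglobin genes HBA and HBB2 had a summed level of 1152 at the fused levels, 434 at the ISC level, 780 in the L3/4 control and 272 in the L2/3-L4/5 control. Their part in the VCAM1 signal was not tested.

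**Figure D5:**
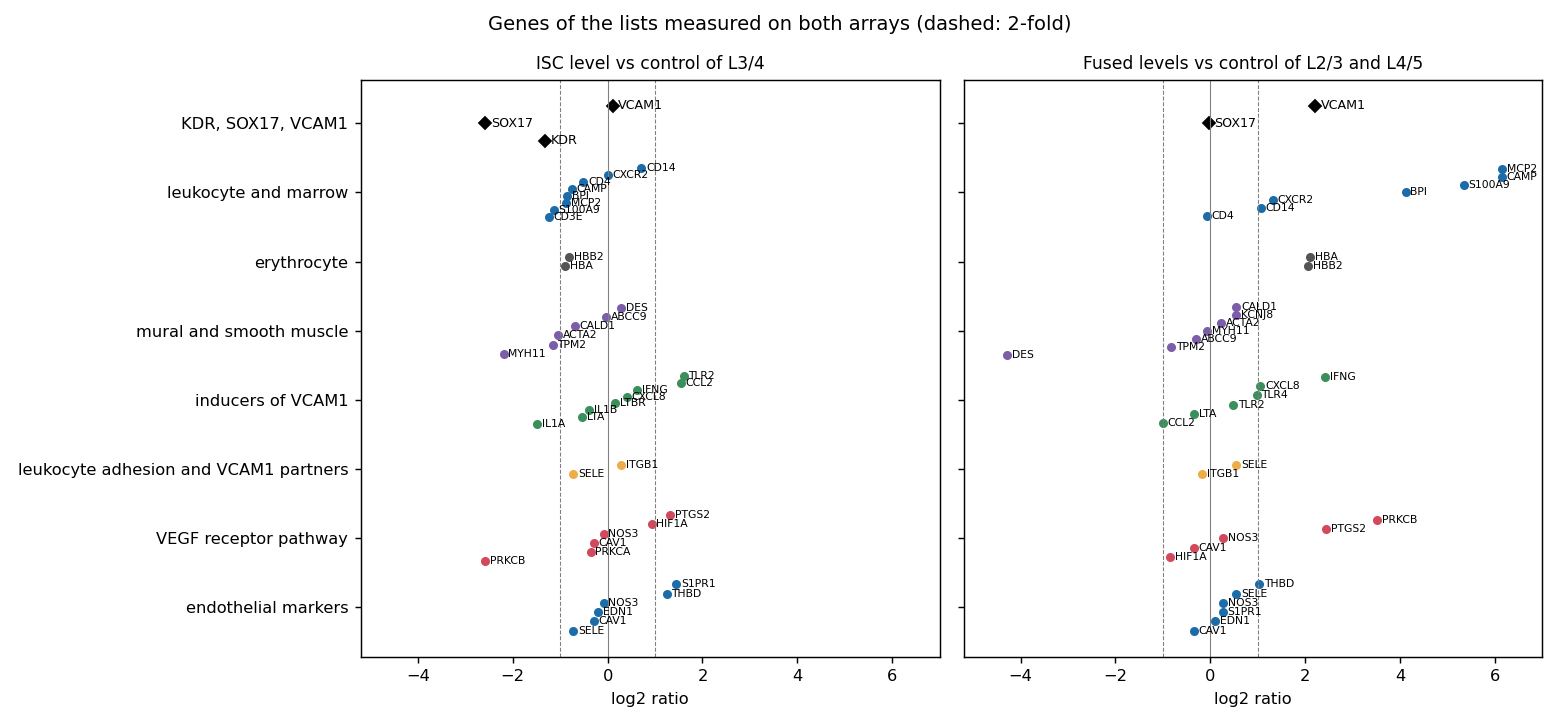
Log2 ratio (horizontal axis) of each named gene of 7 lists and of KDR, SOX17 and VCAM1 for the ISC level and the fused levels, each against its own control, with 2-fold dashed; each point is 1 gene on 1 pair of arrays, drawn where it was well above background on both. SOX17 at -2.57 lies beside MYH11 at -2.19 at the ISC level, while NOS3, EDN1, CAV1 and SELE lie within 2-fold and S1PR1 at 1.45 and THBD at 1.24 lie above it, and at the fused levels VCAM1 at 2.21 lies between the leukocyte genes CD14 at 1.06 and CAMP at 6.14.

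Some mural and smooth muscle genes were lower at the ISC level than in its control, and which cells carried them was not tested. Of 7 named mural and smooth muscle genes, 6 were measured at the ISC level and in its control. Of these, 3 passed 2-fold downwards and 0 upwards, beside 10.5% and 9.08% of all features. Their median was -0.87 beside -0.17 over all features. The summed level of the 7 genes was 29.5 at the ISC level, 69.1 in the L3/4 control, 40.8 at the fused levels and 40.7 in the L2/3-L4/5 control. MYH11, the smooth muscle myosin heavy chain, had levels of 2.79, 4.97, 3.63 and 3.70 in that order, while DES, the muscle filament protein desmin, was highest in the L2/3-L4/5 control at 2.35. Against the L3/4 control the ISC level was at 0.28 for DES and -0.04 for ABCC9. Haemoglobin genes were also lower at the ISC level than in its control, at -0.89 for HBA and -0.80 for HBB2. The part of either group in the SOX17 and KDR differences was not tested.

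The control of L2/3 and L4/5 stood apart in skeletal muscle genes, with a summed level over 13 genes of 872 against 14.7 to 28.1 on the other arrays. Its part in the ratios to that control was not tested. Ligament matrix genes were present on every array, with a summed level of 574 to 742 over 6 genes, and tenomodulin (TNMD), made by tendon and ligament fibroblasts, did not pass the background mark at the fused levels.

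The named genes most like each member were sought by the distance between log2 levels over the 4 arrays after each gene's mean was removed, among the genes well above background on at least 3 arrays. For SOX17 these were MYH11 at a distance of 0.27, SLC22A3, an organic cation transporter gene, at 0.51 and LIF, a cytokine gene, at 0.63, of 1010 genes. For VCAM1 on its brightest probe they were CKS2, a cell cycle gene, at 0.35, PTGER3, a prostaglandin E2 receptor gene, at 0.49 and CD1D, an antigen-presenting molecule, at 0.52. For KDR on its brightest probe they were CYP2C16, a cytochrome P450 gene, at 0.65, LARK at 0.67 and PPM1A, a phosphatase gene, at 0.73, of 1011 genes, and KDR was well above background on 2 of those 4 arrays. Over 4 arrays many genes can have a like order, and the distances are descriptions.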

How the data were processed

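Cy3-labelled cDNA from total RNA was measured on 4 Agilent rabbit arrays of 1 slide, 1 array per group. Agilent Feature Extraction 12.0.3 is named in the submitters' processing notes. Each deposited spot value is an intensity, linear, background-subtracted and with no scaling between arrays, per the file headers. The software's error of each intensity and its spot marks were deposited beside it. The authors' deposited value table equals the processed intensity times 1 factor per array and served as an alternative; how its factors were chosen is unknown, and its column medians were 515.5 (ISC level), 442.3 (L3/4 control), 498.4 (fused levels) and 504.0 (L2/3-L4/5 control).

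Control spots and 3 to 7 outlier spots per array were left out, and no spot was saturated. Probes well above background made up 59.6% to 67.9% of each array, and the median SD over replicate spots of a probe was 0.12 to 0.15 (log2); the number of arrays limits the precision. RefSeq accessions were named through a RefSeq table of assembly mOryCun1.1, used for names alone, which named 3792 of 43603 probes. A feature was measured when well above background on both arrays of a pair. Calculations used Python 3.11.15, pandas 2.3.3 and limma 3.58.1, and the calls were tested on simulated data. Of 224 symbols in 10 lists, 67 could be named, and 1 of these is not reported here. The members and lists were chosen with earlier results of these data known. Genes named are the members, measured genes of the endothelial, growth factor, SOX and Notch, adhesion and inducer lists, the extremes of other lists, and the 3 nearest genes of each member; list genes outside that rule because an array of the pair was not well above background (ACE, PROX1, EZR, IL1B, TNF, IL4, IL6, IRF1, WNT5A, DKK1 and TNMD) were added by name once values were known. Alternatives were other normalizations, normexp on median spot signals, other probe summaries, other filters and other fold sizes. Normexp used an offset of 50, and the mean spot signal is not among the columns used here.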

Additional observations from a re-analysis of the deposited data

Results flagged for a closer look

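VCAM1 had 3 probes that lay below 0 at the ISC level and above 0 at the fused levels, each against its own control. A_04_P004401 was at -0.79 and 1.74, A_04_P004402 at -1.01 and 1.84 and A_04_P004403 at -0.59 and 1.71 in that order. With the fused levels' control used for both, no probe of the 3 had opposite signs. Against that control the ISC level was at 0.79, 1.05 and 0.85. Against the ISC level's control the fused levels were at 0.16 ± 0.22, -0.21 ± 0.21 and 0.26 ± 0.21. The ISC level's control was itself above the other control by 1.58, 2.05 and 1.44. The difference between the contrasts with the own control was not tested, since each group has 1 array. The other pair of VCAM1 probes was above 0 in both, and neither KDR nor SOX17 had a probe with opposite signs that was well above background on all arrays concerned.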

How the results depend on the processing

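Quantile normalization, cyclic loess, median centring and the authors' values changed no count of the 3 genes at 2-fold in any of the 6 comparisons. No ratio of at least 2-fold changed sign under any alternative. For the ISC level against its own control, the SOX17 ratio was nearest 0 at -0.62, KDR ran from -1.44 to -0.13 and VCAM1 from -0.59 to 0.23. The SOX17 value nearest 0 came with normexp, where KDR was at -0.35. The normexp offset makes the ratios of dim signals smaller. The KDR value nearest 0 came against the mean of both controls, where SOX17 was at -1.83. That mean takes in the fused levels' own control, where KDR's brightest probe was at -4.16 and not well above background. In the L3/4 control that probe was at -1.78 and well above background. The share of each change that comes from these points was not tested. VCAM1 at the fused levels ran from 1.79 to 2.27 to their own control and from 0.26 to 2.37 to the L3/4 control.

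The counts of the 3 genes at 2-fold were 2 for the ISC level against its control, 1 for the fused levels against theirs, 1 between the controls, 1 for the ISC level and 2 for the fused levels against the other site's control, and 2 between ISC and fused levels. With normexp the ISC level against either control and the controls gave 0, and the fused levels against the L3/4 control and ISC against fused levels gave 1. At 3-fold the ISC level against its control, the fused levels against the L3/4 control and ISC against fused levels gave 1, and the other comparisons with a change gave 0. With the median over probes those same 3 comparisons gave 1 and the controls 2, and with the mean the controls gave 2 and the fused levels against the L3/4 control 1. With detection on 1 array, or no filter, the controls and the ISC level against the L2/3-L4/5 control gave 2, and the fused levels against the L3/4 control and ISC against fused levels gave 3. With detection on all 4 arrays, or against the mean of both controls (an alternative chosen after seeing the data), the ISC level against its control gave 1.

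In that order of comparisons, features at 2-fold numbered 2687, 2330, 2309, 1210, 3229 and 2148. They were 498, 694, 478, 160, 874 and 661 with normexp. They were 4656, 4033, 4217, 2481, 5505 and 3592 with detection on 1 array, and 5897, 5169, 5559, 3505, 6877 and 4648 with no filter. At 1.5-fold they were 6093, 5060, 5121, 3556, 6347 and 4864, and at 3-fold 800, 963, 763, 353, 1295 and 861. Against the mean of both controls the first was 1214. Calls upwards made up 46.4%, 46.1%, 47.7%, 41.3%, 46.4% and 47.4%, and 63.5%, 60.5%, 37.0%, 25%, 60.9% and 36.0% with normexp. With the authors' values, which shift the median of all features from -0.17 to -0.04, the first was 58.9%.

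Of the 3 nearest genes of each member, correlation in place of distance kept 0 for KDR, 1 for SOX17 and 0 for VCAM1. With 1 array per group there was no replicate to leave out, and no paired analysis was possible because each group has 1 array. KDR's signals are close to background, which limits any statement on it.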
